A study of Mus musculus with 1989 samples.

Results

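The high mobility group (HMG) genes described here are Hmgb1, Hmgb2, Hmgb3, Hmgn1, Hmgn2, Hmgn3 and Hmga1, 7 of the 8846 genes measured by single-cell RNA sequencing (scRNA-seq) of mouse thymocytes. They were chosen by family and with earlier results of the same cells known, and they were followed across 1993 cells of 1 library. Cells with values above 0 for both Mki67, the proliferation antigen Ki-67, and Top2a, the topoisomerase that untangles replicated DNA, were called cycling. There were 600 cycling cells, 30.1% of the library (95% interval 28.1 to 32.2), and all others were called noncycling.

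The thymocytes came from C57BL/6 mice labelled as male and 7 weeks old, with no treatment or genetic change named. Thymus cells were profiled with droplet scRNA-seq from the 3′ end of transcripts, and open chromatin was profiled by single-cell ATAC-seq (scATAC-seq) in 542 cells sorted as CD4-CD8- (DN, 182 cells), CD4+CD8+ (DP, 125), CD4+ (119) or CD8+ (116). No cell is tied to an animal, so the library and each sort count as 1 sample. Differences are therefore descriptions without a test, and every 95% interval is exact (binomial for shares, Poisson for sums) and covers counting error only.

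HMG proteins are among the most abundant chromatin proteins that are not histones, and they come in families with different ways of touching DNA. HMGB proteins bend DNA with a pair of HMG boxes and end in an acidic tail, HMGN proteins bind the nucleosome itself and compete with linker histone H1, and HMGA proteins hold AT-rich DNA with short AT hooks. In developing lymphocytes Hmgb1 and Hmgb2 are also known as DNA-bending cofactors of the Rag1 and Rag2 recombinase, which cuts the antigen receptor loci. Thymocytes pass from the DN stage through an immature CD8 single-positive stage (ISP) to dividing DP blasts (DPbla), then to DP cells that rearrange the T cell receptor alpha locus (DPre), to DP cells under selection (DPsel) and to mature CD4 or CD8 single-positive cells (CD4sp, CD8sp).

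Depth differed between the cell states. The number of detected genes ran from 830 to 5025 per cell, and the 7 cells with more than 4500 genes were all cycling. The expression values are on a log2 scale after quantile normalization, in which the smallest value above 0 lay lower in deeper cells (median 0.25 in cycling and 0.82 in noncycling cells), so that shares of cells above 0 move with depth. The deposited values were therefore also ranked within each cell. A value's step is its place among the distinct values above 0 of that cell, and the steps of every cell were drawn down at random to the lowest total of any cell. The median total before thinning was 5835.5 steps in cycling and 2100 in noncycling cells. Steps stand in for counts, understate the highest genes, and have a true zero, so ratios are given only for thinned steps. No thymic cell type is known to lack these genes, so no background share from free RNA could be set beside their shares of cells.

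Of the HMGB genes, the DNA benders, Hmgb1 and Hmgb2 had high levels in cycling cells. Hmgb2 averaged 4.91 ± 1.00 on the log2 scale in cycling cells (SD, n = 600 cells) and 1.67 ± 1.55 in noncycling cells, a difference of 3.24 that was exceeded by 1 gene of the table, the histone gene Hist1h2ap (3.91). Over single cells its lowest, median and highest values were 0, 5.15 and 7.14 in cycling and 0, 1.15 and 7.14 in noncycling cells. The ranges overlapped fully, and 77.8% of noncycling cells still had a value above 0, against 99.0% of cycling cells. Hmgb1, the general HMGB protein and an alarm signal when it leaves the cell, differed by 1.65 (4.89 ± 0.69 and 3.23 ± 1.30). Its lowest, median and highest values were 0.45, 4.94 and 7.14 in cycling and 0, 3.27 and 7.14 in noncycling cells. It was above 0 in all cycling cells and in 98.4% of noncycling cells, so that detection differed little between the states, with no background from free RNA to set beside it. Hmgb3, the family member known from blood stem and progenitor cells, was the lowest of the HMGB genes in share of cells. It was above 0 in 77.7% of cycling cells (interval 74.1 to 80.9) and 19.2% of noncycling cells (17.1 to 21.3), with means of 0.79 ± 0.69 and 0.17 ± 0.40.

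**Figure D1:**
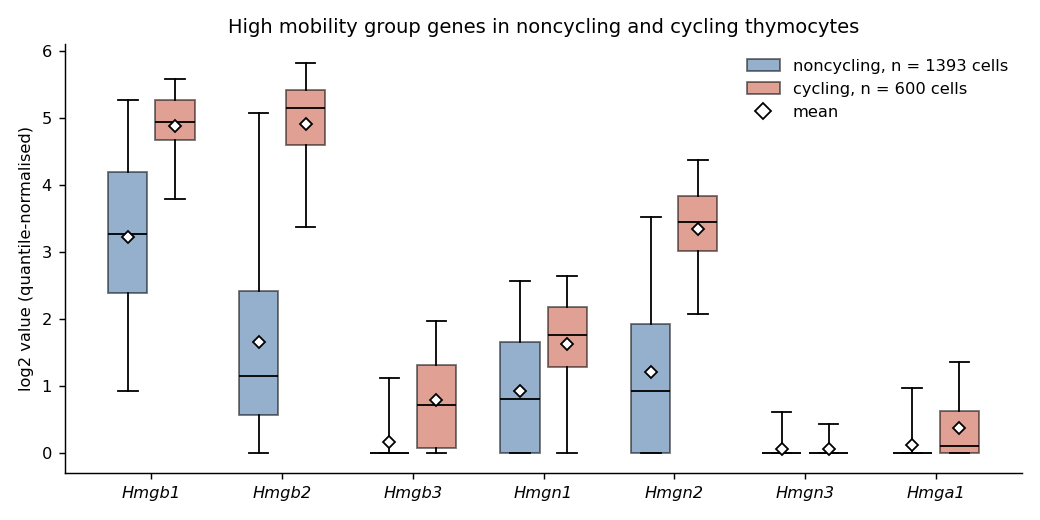
Log2 value of each HMG gene in noncycling and cycling (n = 600 cells) thymocytes of 1 library, with boxes from the 25th to the 75th percentile of cells, whiskers from the 5th to the 95th and diamonds at the mean. The cycling boxes of Hmgb1, Hmgb2 and Hmgn2 lie above the noncycling boxes, and those of Hmgn3 lie at 0 in both states.

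The nucleosome-binding HMGN genes differed among themselves. Hmgn2 had a mean of 3.34 ± 0.79 in cycling and 1.21 ± 1.20 in noncycling cells, a difference of 2.13, with a median of 3.45 against 0.93 and values above 0 in 98.8% and 67.6% of cells. Hmgn1, found in most tissues, differed by 0.70 (1.63 ± 0.76 and 0.93 ± 0.89), with 93.5% and 64.8% of cells above 0. Hmgn3, known from the brain, the eye and the pancreatic islets, had the same mean to the printed digits in both states (0.07 ± 0.22 and 0.07 ± 0.27), and was above 0 in 19.7% of cycling and 9.12% of noncycling cells. Hmga1, the AT-hook member, which is high in embryonic and many tumour cells, had means of 0.38 ± 0.51 and 0.12 ± 0.33, a difference of 0.26, with 54.3% of cycling and 15.2% of noncycling cells above 0.

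In all, 5 of the 7 genes were higher in cycling cells by 0.5 or more, where 262 of all 8846 genes were (2.96%), and none was lower by as much, where 21 of all genes were (0.237%). These counts rest on the contrast that was known when the genes were selected, and they describe the family without testing it. The count was smaller where depth was matched. With log2(steps + 1) after thinning, and within strata of detected genes, only Hmgb1, Hmgb2 and Hmgn2 of the members differed by 0.5 or more, where 47 (0.531%) and 63 (0.712%) of all genes did, while Hmgb3 gave 0.26 and 0.35 and Hmgn1 gave 0.23 and 0.075. The members nearest this limit were Hmgb3, inside it with a difference of 0.62, and Hmga1, outside it with 0.26. In the order of all genes by this difference, Hmgb2 ranked 2, Hmgn2 ranked 8, Hmgb1 ranked 18, Hmgn1 ranked 135, Hmgb3 ranked 170, Hmga1 ranked 639 and Hmgn3 ranked 3963. The genes around them at the top of the order, H2afz, Stmn1, Pclaf and Tuba1b, encode a histone variant, a microtubule regulator, a partner of the replication clamp and a tubulin.

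**Figure D2:**
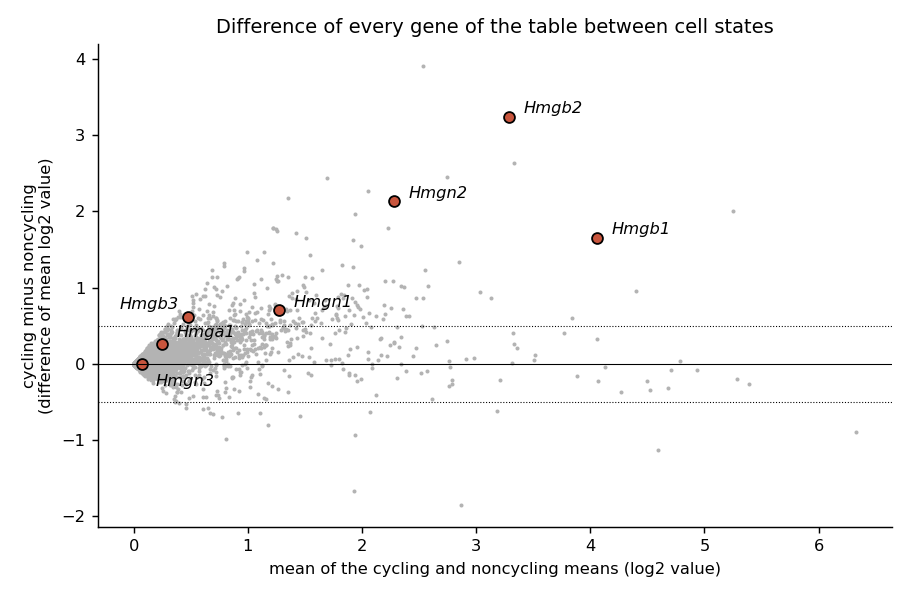
Difference of the mean log2 value between cycling and noncycling cells (vertical axis) against the mean of both states (horizontal axis) for the 8846 genes of the table, with the HMG genes named. Hmgb2 and Hmgn2 lie at the upper edge of the cloud at 3.24 and 2.13, and Hmgn3 lies at 0.00.

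With step totals made equal, Hmgb1, Hmgb2, Hmgb3, Hmgn1, Hmgn2 and Hmga1 were again higher in cycling cells, in another order. Thinning matches the step total and not the number of detected genes, which is taken up further on. After thinning, Hmgb2 gave a mean of 7.24 steps per cycling cell and 1.79 per noncycling cell, a ratio of 4.04 (interval 3.85 to 4.25). The ratio was 3.55 for Hmgb3 (2.90 to 4.35), 3.41 for Hmgn2 (3.19 to 3.64), 1.84 for Hmgb1 (1.77 to 1.91), 1.71 for Hmga1 (1.30 to 2.26) and 1.43 for Hmgn1 (1.28 to 1.58). The interval for Hmgn3, 0.77 to 1.82 around a ratio of 1.20, included 1. Thus Hmgb3, which ranked behind Hmgb1 and Hmgn1 on the log2 scale, had a thinned ratio beside those of Hmgb2 and Hmgn2. Within strata of detected genes its log2 difference was 0.35, against 1.41 for Hmgb2 and 0.95 for Hmgn2. Of the 6 HMG genes found in at least 5% of all thinned cells, 5 had a ratio of 1.5 or more, where 567 of 4644 such genes of the table did (12.2%), and none had a ratio as far below 1, where 969 did (20.9%). Hmgn3 was found in 4.82% of thinned cells and did not pass this filter. The genes of the rule itself, Mki67 and Top2a, had ratios of 14.9 and 11.0.

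For Hmgb1, Hmgb2, Hmgb3, Hmgn1 and Hmgn2, cells with a value for only 1 of the rule's genes lay between the ends. The mean of Hmgb2 was 1.16 thinned steps in the 964 cells with neither Mki67 nor Top2a, 2.66 in the 126 cells with Mki67 only, 3.42 in the 303 cells with Top2a only and 7.24 in cycling cells. Hmgn2 followed the same order with 0.82, 1.36, 1.88 and 3.74 steps, and so did Hmgb1 with 3.62, 4.40, 5.04 and 7.34. The median step total before thinning also followed this order, from 2003 in cells with neither gene to 2320.5, 2758 and 5835.5. The shift was smaller for Hmgn1, which had 0.63, 0.73, 0.80 and 0.97 steps. Hmgb3 had 0.098, 0.111, 0.182 and 0.415. Hmga1 was outside this order, with 0.175 steps in cells with Top2a only and 0.155 in cycling cells, and Hmgn3 had 0.048, 0.063, 0.046 and 0.058. The noncycling group thus spanned a range of levels.

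The promoters of members that were high together in cycling cells are shown because the sequence just upstream of a start site is where CCAAT boxes, bound by NF-Y, and cell cycle homology region (CHR) elements, known from genes of the late cell cycle, occur. The 250 bases upstream of a start were taken from RefSeq (build GRCm38.p6), which gave 8 entries for 6 of the 7 genes, and Hmgn3 was not matched. Each was searched on both strands for CCAAT, for a CHR element (TTTGAA or TTCGAA) and for E2F sites (TTTCCCGC, TTTCGCGC, TTTGCCGC or TTTGGCGC), none of which contains another. Capitals mark the matches, and a match on the opposite strand appears as its reverse complement. The sequences run 5′ to 3′ on the strand of the gene, at chr8:57511593-57511842 (+) for Hmgb2, chrX:71555667-71555916 (+) for Hmgb3, chr5:149053058-149053307 (-) for Hmgb1 and chr4:133968002-133968241 (-) for Hmgn2, the last without the bases that lie in annotated exons.
Hmgb2: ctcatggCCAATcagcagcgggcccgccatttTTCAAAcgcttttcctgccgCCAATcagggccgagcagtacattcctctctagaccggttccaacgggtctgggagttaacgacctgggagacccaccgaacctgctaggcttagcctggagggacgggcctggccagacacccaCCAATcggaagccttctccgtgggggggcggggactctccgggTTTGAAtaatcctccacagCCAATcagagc
Hmgb3: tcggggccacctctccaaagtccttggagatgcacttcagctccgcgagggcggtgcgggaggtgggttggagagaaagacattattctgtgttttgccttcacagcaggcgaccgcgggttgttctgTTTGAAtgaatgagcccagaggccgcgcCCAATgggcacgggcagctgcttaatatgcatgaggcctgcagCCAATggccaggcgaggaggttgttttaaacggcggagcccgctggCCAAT
Hmgb1: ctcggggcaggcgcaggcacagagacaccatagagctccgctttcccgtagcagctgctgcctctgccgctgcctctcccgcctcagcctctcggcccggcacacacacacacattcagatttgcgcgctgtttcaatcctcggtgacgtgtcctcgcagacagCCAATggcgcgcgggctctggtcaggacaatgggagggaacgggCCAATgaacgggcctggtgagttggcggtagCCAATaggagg
Hmgn2: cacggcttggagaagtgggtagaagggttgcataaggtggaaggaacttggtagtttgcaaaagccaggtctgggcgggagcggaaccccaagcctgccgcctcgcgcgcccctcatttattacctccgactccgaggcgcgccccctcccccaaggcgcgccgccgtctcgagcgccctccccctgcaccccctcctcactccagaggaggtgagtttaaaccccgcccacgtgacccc

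The Hmgb2 promoter held 4 CCAAT boxes, of which the nearest began 11 bases before the RefSeq start, and 2 CHR elements, the nearest 30 bases before it. The RefSeq start is the end of the printed window, which lies upstream of the Hmgb2 start used for the scATAC-seq peaks (chr8:57511907), so distances from the latter are longer. The Hmgb3 promoter held 3 CCAAT boxes and 1 CHR element, and the Hmgb1 promoter shown held 3 CCAAT boxes and no CHR element. A second Hmgb1 entry (chr5:149051617-149051866) held none of the motifs. Hmgn1 had 2 CCAAT boxes, and Hmgn2 and Hmga1 had none in these windows. Among 27025 mouse promoters of the same length, 34.5% held a CCAAT box, 2.98% held 3 or more, 0.918% held 4 or more and 17.4% held a CHR element. Both 3 or more CCAAT boxes and a CHR element, as in Hmgb2 and Hmgb3, were held by 0.514%. An E2F site as spelled here was held by 1.91% of promoters and by none of these entries. Hmgn2, with a ratio close to that of Hmgb3 between cell states, shared none of the searched motifs with it. These matches describe letters and not bound sites.

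Classes of cells were rebuilt by clustering, because no deposited annotation was used, and named from marker genes that do not include the HMG genes. In the 17 clusters, DN-like cells numbered 78, ISP-like 314, DPbla-like 339 and DPre-like 496, and DPsel-like cells were 20.0% of the library. CD4sp-like cells numbered 149 and CD8sp-like cells 152, beside 31 natural killer and other innate-like cells (NCL) and 36 antigen-presenting-like cells (APC). The names ISP and DPbla were kept for clusters in which 50% or more of the cells had an Mki67 value, a rule that draws cycling cells into these classes, which held 35.0% and 52.3% of them. Hmgb2 was among the 10 leading genes of all 6 of their clusters, so levels by class are a description. Median step totals before thinning were highest in ISP-like (7366.5) and DPbla-like cells (5219), followed by DN-like cells (3633), with 1999 in DPre-like and 1963.5 in DPsel-like cells and 1938 to 2407.5 in the other classes. The narrowest name was that of a DPsel-like cluster of 67 cells, which scored 1.18 for DPsel and 0.97 for CD4sp and shared the leading genes Ifi27l2a, Shisa5 and Cd52 with the CD4sp-like and CD8sp-like clusters. Next was an ISP-like cluster of 151 cells led by Hmgb2, Pclaf and H2afz, which scored 0.43 for ISP and 0.14 for DPbla.

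Hmgb1 and Hmgb2 parted after the blast stage. The mean of Hmgb1 was 8.48 thinned steps per cell (interval 8.18 to 8.80) in DPbla-like, 6.56 (6.28 to 6.85) in ISP-like and still 5.77 (5.56 to 5.99) in DPre-like cells, the class with the highest Rag1 level (1.64 steps). It was 3.78 (3.36 to 4.24) in DN-like and 2.70 (2.54 to 2.86) in DPsel-like cells, and from APC-like (2.39) through CD8sp-like (2.28) and NCL-like (2.26) to CD4sp-like cells (2.04) the intervals of neighbours overlapped. Hmgb2 was as high in DPbla-like cells, with 8.63 steps (8.32 to 8.94), and was 6.19 (5.92 to 6.47) in ISP-like cells. In DPre-like cells it was 2.11 (1.99 to 2.25), with NCL-like (1.81) and DN-like cells (1.59) next in order. The lowest mean was that of DPsel-like cells with 0.91 (0.82 to 1.01). Its interval overlapped those of CD4sp-like (1.06, 0.90 to 1.24), CD8sp-like (1.14, 0.98 to 1.33) and APC-like cells (1.14, 0.82 to 1.55).

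**Figure D3:**
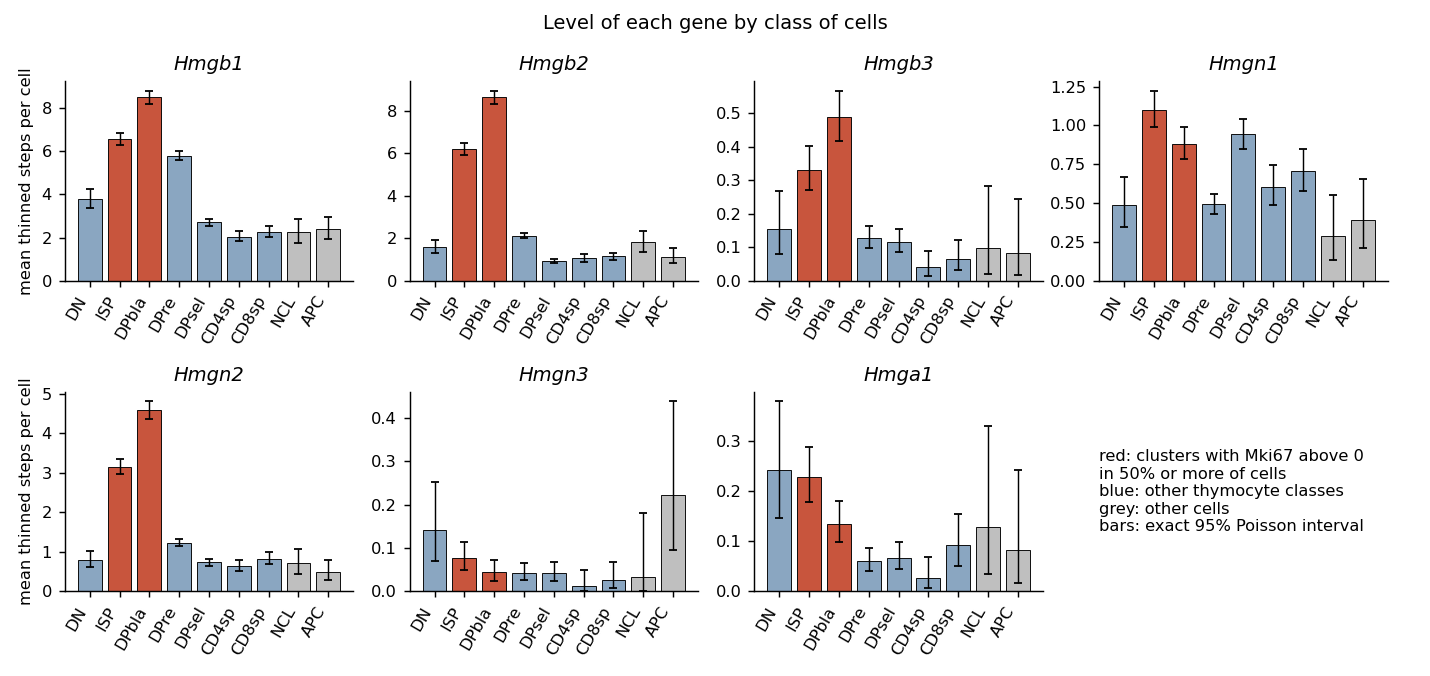
Mean thinned steps per cell of each HMG gene by class of cells, with exact 95% Poisson intervals. Hmgb2 and Hmgn2 are highest in the ISP-like and DPbla-like bars, Hmgb1 is also high in DPre-like cells (5.77), and Hmgn1 has a further high bar in DPsel-like cells (0.94).

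The same contrast was seen in the share of cells in which Hmgb2 had more thinned steps than Hmgb1. This was 46.6% of DPbla-like, 40.8% of ISP-like, 14.1% of DN-like, 9.27% of DPre-like and 10.6% of DPsel-like cells. The ratio of summed Hmgb2 steps to summed Hmgb1 steps was 1.02 (0.97 to 1.07) in DPbla-like, 0.94 (0.89 to 1.01) in ISP-like, 0.42 (0.34 to 0.52) in DN-like, 0.37 (0.34 to 0.39) in DPre-like and 0.34 (0.30 to 0.38) in DPsel-like cells. CD4sp-like cells had 0.52 and CD8sp-like cells 0.50. Both genes are counted from their 3′ ends and steps compress high values, so the change of this ratio between classes is meant and not which transcript was more abundant. Across cell states the ratio was 0.99 (0.94 to 1.03) in cycling cells and 0.32 (0.30 to 0.34) in cells with neither Mki67 nor Top2a.

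The Hmgb1 level of DPre-like cells was also seen outside the cycling cells. In the 346 DPre-like cells with neither Mki67 nor Top2a, Hmgb1 had 5.41 thinned steps (5.17 to 5.66), compared with 3.48 (2.96 to 4.06) in 46 DN-like, 2.74 (2.56 to 2.93) in 312 DPsel-like, 2.09 in 100 CD8sp-like and 2.03 in 105 CD4sp-like cells of the same kind. Hmgb2 in these cells was 1.38 (1.26 to 1.51) in DPre-like and 0.83 (0.73 to 0.94) in DPsel-like cells. The DPre-like class was itself uneven. A cluster of 120 cells, 25.0% of them cycling, had 8.38 steps of Hmgb1, 5.93 of Hmgb2 and 3.33 of Hmgn2. The other clusters of the class, with 223 and 153 cells, had 4.74 and 5.25 steps of Hmgb1, 0.97 and 0.78 of Hmgb2, and 0.72 and 0.35 of Hmgn2. In these clusters, with at most 1.35% cycling cells, Hmgb1 thus stayed above its level in DN-like and DPsel-like cells while Hmgb2 and Hmgn2 were low.

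Hmgn2 followed Hmgb2 across classes, with 4.58 thinned steps (4.35 to 4.81) in DPbla-like, 3.16 (2.96 to 3.36) in ISP-like and 1.24 (1.14 to 1.34) in DPre-like cells and 0.50 to 0.83 in the others. Its highest cluster was a DPbla-like cluster of 96 cells with 5.61 steps, which also had Ube2c and Cks2 among its leading genes. Hmgb3 was highest in the same classes, with 0.49 (0.42 to 0.57) in DPbla-like and 0.33 (0.27 to 0.40) in ISP-like cells, and lowest in CD4sp-like cells (0.04). Hmgn1 had another order. It was 1.10 (0.99 to 1.22) in ISP-like, 0.94 (0.85 to 1.04) in DPsel-like, 0.88 (0.78 to 0.99) in DPbla-like, 0.70 in CD8sp-like and 0.60 in CD4sp-like cells, and 0.49 in both DPre-like and DN-like cells. Neighbours in this order overlapped throughout, but the intervals of DPsel-like and DPre-like cells (0.43 to 0.56) did not, also among cells with neither cycling gene (0.96 and 0.42). Hmgb1 and Hmgn1 were thus opposite between the DPre-like and DPsel-like stages.

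Hmga1 and Hmgn3 were not highest in the blasts. Hmga1 was highest in DN-like (0.24, interval 0.15 to 0.38) and ISP-like cells (0.23, 0.18 to 0.29), with 0.14 (0.10 to 0.18) in DPbla-like, 0.07 (0.04 to 0.10) in DPsel-like, 0.06 (0.04 to 0.09) in DPre-like and 0.03 in CD4sp-like cells, and 14.1% of DN-like cells were cycling. Among noncycling cells alone it was 0.19 (0.10 to 0.33) in DN-like and 0.29 (0.19 to 0.41) in ISP-like cells, and in the 46 DN-like cells with neither Mki67 nor Top2a it was 0.13 (0.05 to 0.28). The intervals of DN-like, ISP-like and DPbla-like cells overlapped in part. Hmgn3 was highest in APC-like cells (0.22, 0.10 to 0.44) and DN-like cells (0.14, 0.07 to 0.25), and had 0.08 in ISP-like and 0.01 to 0.04 in the other classes. After thinning it was found in 11.1% of APC-like, 12.8% of DN-like, 7.32% of ISP-like and 1.34% of CD4sp-like cells, and before thinning in 27.8%, 30.8%, 26.1% and 4.70%. The APC-like value rests on 36 cells, and its interval overlapped that of DN-like cells.

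Within classes the contrast between cycling and noncycling cells was uneven. It was computed for the 3 classes with at least 20 cells of each kind. Among ISP-like cells (210 cycling, 104 noncycling) the ratio of thinned steps was 0.98 (0.89 to 1.08) for Hmgb2, 0.91 (0.83 to 1.00) for Hmgb1, 0.88 (0.77 to 1.00) for Hmgn2 and 1.34 (0.86 to 2.15) for Hmgb3. Among DPbla-like cells (314 and 25) it was 0.82 (0.72 to 0.94) for Hmgb2, 0.85 (0.74 to 0.97) for Hmgb1 and 0.92 (0.76 to 1.11) for Hmgn2. For Hmgb1, Hmgb2 and Hmgn2, cells of these classes without a value for both Mki67 and Top2a thus had levels at or above those of cells with both. Ratios above 1 were also those of Hmgb3 (1.11, 0.61 to 2.28), Hmgn3 (1.11, 0.17 to 47.1) and Hmga1 (1.75, 0.46 to 14.9) in DPbla-like and Hmgn1 (1.12, 0.89 to 1.42) in ISP-like cells, and all their intervals included 1, as did that of Hmgb3 in ISP-like cells. Their median step totals before thinning were 4722 against 8211.5 in ISP-like and 4089 against 5286 in DPbla-like cells, and the part of missed detection of Mki67 or Top2a in this was not tested. Among DPre-like cells (34 and 462) the ratios were 4.41 (3.82 to 5.08) for Hmgb2, 3.48 (2.84 to 4.24) for Hmgn2, 2.87 (1.35 to 5.58) for Hmgb3, 1.62 (1.04 to 2.44) for Hmgn1 and 1.52 (1.34 to 1.72) for Hmgb1. Hmga1 was below 1 in DPre-like (0.47, 0.01 to 2.83) and ISP-like cells (0.69, 0.42 to 1.15), with intervals that included 1. Most of the DPre-like cycling cells belonged to the cluster of 120 cells described above, and the contrast depended on the clustering and on the naming of clusters. Of the HMG genes, Hmgn2 and Hmgn3 were among the variable genes that built the clusters. When the HMG genes were left out, a cluster of 73 cells led by Hmgb2, Cenpa and Hmgb1 formed, 38.4% of them cycling. Of all classes DPre scored highest in it, but 56.2% of its cells had an Mki67 value, so the naming rule made it DPbla. The clusters named DPre, of 236 and 186 cells, then held 2.12% and 1.08% cycling cells, too few for this contrast.

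The number of detected genes moved with the differences as well. In 5 strata of detected genes, from shallow to deep, the difference of Hmgb2 was 1.77, 2.27, 3.00, 2.37 and 0.61 on the log2 scale. That of Hmgn2 was 0.57, 1.19, 1.72, 1.72 and 0.38, and that of Hmgb1 was 1.06, 0.96, 1.56, 1.32 and 0.22. Each was smallest in the deepest stratum, which held 333 cycling and 66 noncycling cells. Hmgn1 differed by 0.21 to 0.31 in 4 strata and by -0.06 in the deepest, and Hmga1 by -0.09 to 0.04 in all but the shallowest (0.37), which held 10 cycling cells. For these genes the difference over all cells (0.70 and 0.26) was thus larger than within strata, except for Hmga1 in the shallowest.

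The HMG genes together took a changing share of the transcriptome as steps measure it. They made up 1.71% of all thinned steps in DPbla-like cells, 1.30% in ISP-like, 0.73% in DPre-like and 0.33% in CD4sp-like cells, and 1.47% in cycling against 0.58% in noncycling cells. Within this share the balance shifted. Hmgb1 was 58.6% of it in DPre-like and 36.5% in DPbla-like cells, while Hmgb2 was 21.5% and 37.1%. A cycling cell had values for a median of 6 of the 7 genes and a noncycling cell for 3, and after thinning these medians were 4 and 3.

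Cycling cells were next ordered from S to G2/M with lists of phase genes from which Hmgb2, Mki67 and Top2a had been left out. Each cell took the phase with the higher score, which gave 300 S-like and 300 G2/M-like cells, of which 127 lay near the limit. The classes are ranges of a score and not cell types. Hmgn2 had 4.54 thinned steps in G2/M-like and 2.95 in S-like cells, a ratio of 1.54 (1.41 to 1.68). Hmgb3 had a ratio of 1.37 (1.06 to 1.78), Hmgb2 of 1.27 (1.20 to 1.35) and Hmgb1 of 1.19 (1.13 to 1.27). Hmga1 went the other way with 0.11 against 0.20 steps, a ratio of 0.55 (0.35 to 0.85), as did Hmgn1 (0.77, 0.65 to 0.91). The ratio of Hmgn3 was 0.84 (0.41 to 1.73). Past a factor of 1.5 lay Hmgn2 among the higher genes, where 12.6% of the 4644 genes compared were, and Hmga1 among the lower, where 14.3% were. Median step totals before thinning were 5587.5 in G2/M-like and 6272.5 in S-like cells.

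**Figure D4:**
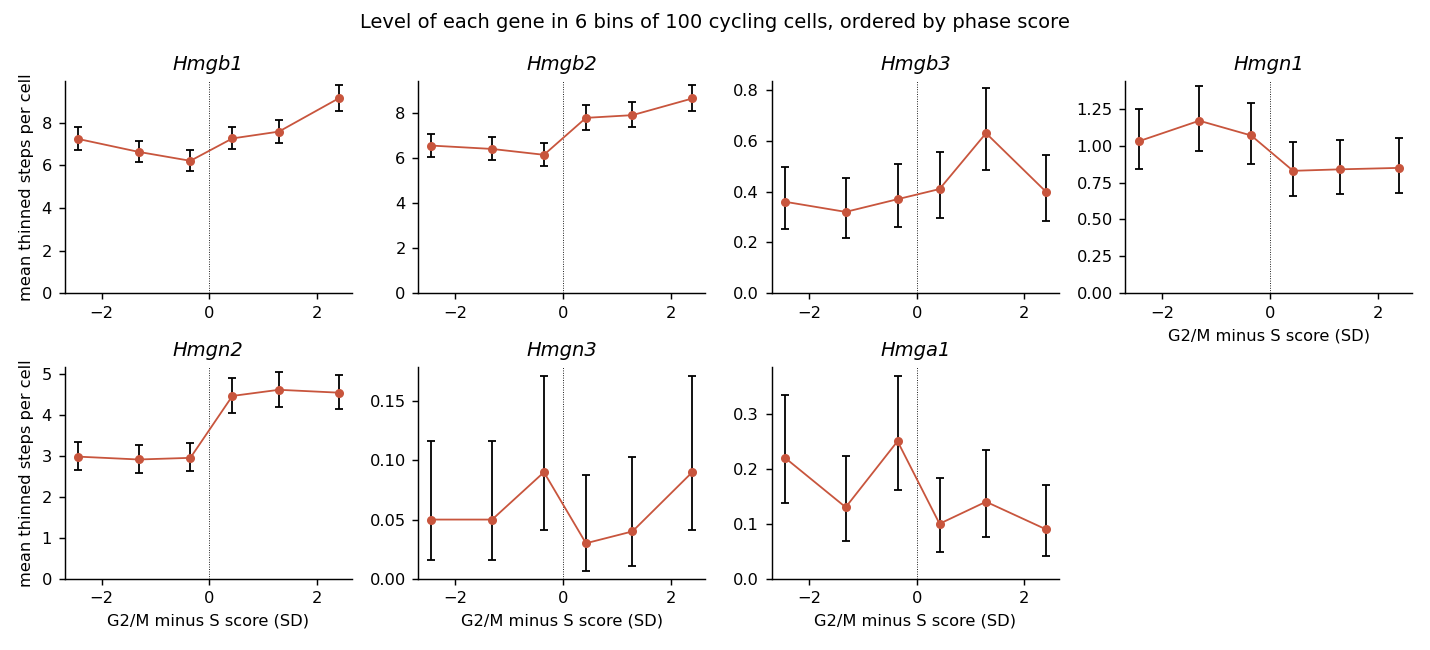
Mean thinned steps per cell with exact 95% Poisson intervals in 6 bins of 100 cycling cells, against the mean difference of the G2/M and S scores of the bin. Hmgn2 is flat at 2.91 to 2.98 in the S-like bins and at 4.46 to 4.61 in the G2/M-like bins, and Hmgb1 goes from 7.24 in the first bin down to 6.21 in the third and up to 9.14 in the last.

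Class and phase were mixed, since ISP-like cycling cells were mostly S-like (166 of 210) and DPbla-like cycling cells mostly G2/M-like (220 of 314). Within DPbla-like cycling cells Hmgn2 was still higher in G2/M-like cells (ratio 1.41, 1.25 to 1.60), while Hmgb2 (1.04, 0.95 to 1.13) and Hmgb1 (1.07, 0.98 to 1.16) had intervals that included 1. Within ISP-like cycling cells the ratio was 1.02 for both Hmgn2 (0.84 to 1.24) and Hmgb2 (0.89 to 1.16), and 0.80 (0.69 to 0.92) for Hmgb1, which there was lower in G2/M-like cells. Hmgb3 had ratios of 1.18 (0.82 to 1.73) among DPbla-like and 1.35 (0.77 to 2.28) among ISP-like cells. In the same order Hmga1 had ratios of 0.62 (0.33 to 1.20) and 0.75 (0.28 to 1.72), and Hmgn1 of 0.81 (0.63 to 1.06) and 0.87 (0.62 to 1.21). The phase contrast of Hmgn2 was thus seen among blasts and not among ISP-like cells, a difference between classes that was not tested.

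Other genes of HMG biology gave a context for the members. Of 32 listed genes with an HMG box, or of the HMGN and HMGA families outside the members, 24 were in the table. Only Hmgn5, another nucleosome-binding HMGN gene, was higher in cycling cells by 0.5 or more (0.52, with 0.69 ± 0.64 and 0.17 ± 0.41), and the median difference of the list was 0.00, as over all genes. After thinning, 5 of the 19 genes that passed the filter were higher by 1.5 times or more. They were the histone methyltransferase Nsd2 (3.86), Hmgn5 (3.42), the FACT subunit Ssrp1 (1.98), Hmgxb4 (1.51) and the remodeller subunit Pbrm1 (1.51). Tox (0.29), Hbp1 (0.38), Lef1 (0.46) and Bbx (0.64) were as far below 1. Lef1, a sequence-specific HMG factor of T cell development, had the lowest difference (-0.35), whereas Tcf7, a factor of the same kind, had a ratio of 0.96 (0.89 to 1.03). The median ratio of the list was 0.90 and that of all genes 0.92, against 2.62 for the 6 members that passed.

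Partners and competitors of the HMG proteins were followed by the same counts. Of 7 linker histone genes, which share the nucleosome with HMGN proteins, only Hist1h1b passed 0.5 (0.53, ratio 9.84). Of the 4 found in at least 5% of thinned cells, Hist1h1b and Hist1h1e (4.501, 3.16 to 6.49) were past a ratio of 1.5. Both reached 5% only through cycling cells (23.3% and 13.5%, against 2.87% and 3.37% of noncycling cells), so this count depends in part on the filter. The lowest difference was that of H1f0 (0.02), the linker histone of resting cells. Of 6 genes of the SET complex, in which Hmgb2 is found, Anp32b (1.55), Anp32a (0.67) and Set (0.56) passed, and Apex1 was lowest (0.10). After thinning Anp32b (2.43) and Apex1 (1.61) were past 1.5 and Anp32a (1.24) and Set (1.38) were not. Of 7 genes of FACT and chromatin assembly behind the replication fork, Nap1l1 (1.11) and Asf1b (0.59) passed and Chaf1b was lowest (0.09), and all 7 had a ratio of 1.5 or more.

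Among the recombinase genes, Dntt, which adds bases at the joints, was highest (0.70, ratio 1.21) and Rag1 lowest (-0.06, ratio 0.62, interval 0.55 to 0.71). Of the receptors and partners of extracellular Hmgb1, 3 of 7 were in the table. Cd24a had the highest difference (0.40, ratio 1.17) and Cxcl12 the lowest (-0.00), while the chemokine receptor Cxcr4 had a ratio of 1.66 (1.28 to 2.14). Markers of other cells that a thymus suspension can hold summed to fewer thinned steps in cycling than in noncycling cells. The erythroid list (2 of 5 genes in the table) summed to 0.03 thinned steps per cycling and 0.06 per noncycling cell, and the stromal list (3 of 7) to 0.14 and 0.26. The most detected stromal gene was above 0 in 37.7% of cycling and 27.8% of noncycling cells, and the stromal sum in noncycling cells was above the level of Hmgb3 there (0.12). The part of such cells in the contrast of the HMG genes was not tested.

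The genes most like each member over the means of the 17 clusters were taken from 3073 genes above 0 in at least 20% of cells, as a description over clusters that share 1 library. Hmgb2 was closest to Hmgn2 (Pearson r = 0.98), followed by H2afz and Hmgn5. Hmgn2 was closest to Rbm3 (0.99), Stmn1 and Hmgb2. Hmgb1 was closest to Txn1 (0.96), Dynlt1f and Ezr, and its r with Hmgb2 was 0.89. Hmgb3 was closest to Ddx39 (0.98), Lsm5 and Pcmt1, Hmga1 to Syce2 (0.98), Pa2g4 and Rnps1, and Hmgn1 to Atp5g3 (0.95), Srsf7 and Atp5j. Over cluster means of thinned steps some of these changed, to Mns1, Anp32e and Txn1 for Hmgb1, Lsm3, Ssna1 and Spc24 for Hmgb3 and Rnps1, Phgdh and Sac3d1 for Hmga1. Hmgn3 had H2-Ab1 (0.83), Gngt2 and Cd74, genes of antigen-presenting cells, as its nearest genes of 3074 and an r of -0.19 to -0.08 with the other members. By thinned steps its nearest genes were instead Bloc1s2 (0.79), Pafah1b3 and Akr1a1, and its r with the other members ran from -0.13 to 0.18. Over thinned single cells r was 0.64 for Hmgb2 with Hmgn2, 0.61 for Hmgb1 with Hmgb2 and 0.50 for Hmgb1 with Hmgn2. Among cycling cells alone these were 0.29, 0.42 and 0.29. All other pairs of members had r of at most 0.32 in thinned cells. Hmgn1, found in 51.5% of thinned cells, had an r of 0.05 with Hmgb1, 0.12 with Hmgb2 and 0.11 with Hmgn2. Pairs with Hmgb3, Hmgn3 or Hmga1, each found in at most 17.2% of thinned cells, were detected too rarely for r to be read.

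The peaks at the start sites of the HMG genes held counts in every sort, though few for some. On GRCm38 the genes lie at chr5:149046702-149184489 (Hmgb1, minus strand), chr8:57511907-57515999 (Hmgb2, plus), chrX:71555918-71560676 (Hmgb3, plus), chr16:96120618-96127729 (Hmgn1, minus), chr4:133964738-133968650 (Hmgn2, minus), chr9:83109948-83146685 (Hmgn3, minus) and chr17:27556497-27563674 (Hmga1, plus). Each start site lay inside a 4000 bp scATAC-seq peak, 33 to 224 bp from its centre. At the start of Hmgb2 a count was found in 44.0% of DN cells (36.6 to 51.5), 27.2% of DP (19.6 to 35.9), 42.0% of CD4 (33.0 to 51.4) and 29.3% of CD8 cells (21.2 to 38.5). At the start of Hmgb1 it was found in 26.4% of DN (20.1 to 33.4), 16.8% of DP, 14.3% of CD4 and 15.5% of CD8 cells. Fewer cells had a count at the other starts, with 10.1% to 17.6% for Hmgn1, 5.04% to 12.8% for Hmgb3, 1.60% to 9.34% for Hmgn2, 3.36% to 7.69% for Hmgn3 and 1.68% to 7.69% for Hmga1. The Hmga1 start had 2 counts in the CD4 sort and the Hmgn2 start 3 in the DP sort, no more than the 3 counts that a count of 0 would allow. Median counts per cell in all peaks were 3377.5 in DN, 3866 in DP, 2571 in CD4 and 3935.5 in CD8 cells, with a range of 1 to 29445.

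**Figure D5:**
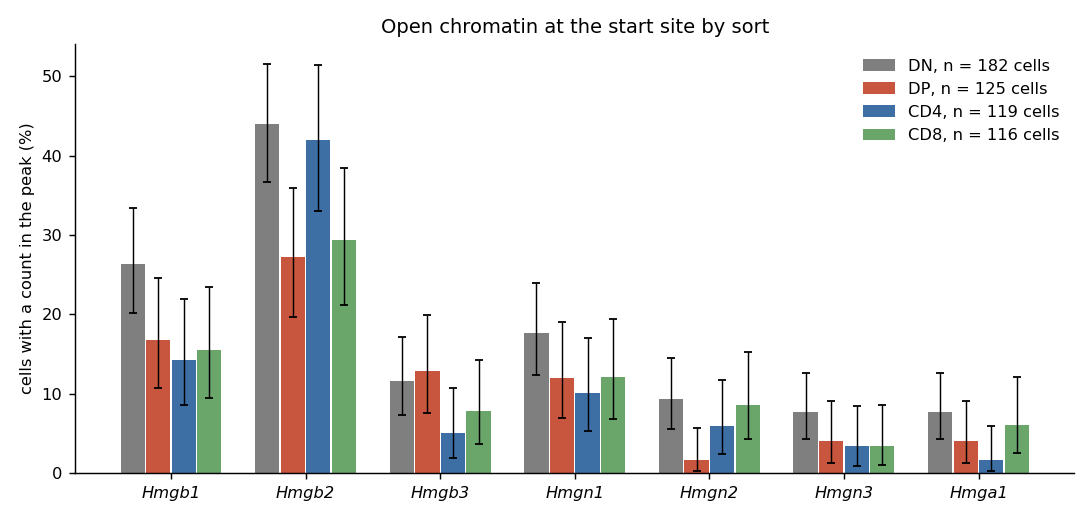
Share of cells in each scATAC-seq sort with a count in the peak at the start site of each HMG gene, with exact 95% binomial intervals. Hmgb2 has the highest bars (27.2% to 44.0%), and for every gene the intervals of most sorts overlap.

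Relative to all counts in peaks, few differences between sorts could be told from counting error. Per 10000 counts, the Hmgb2 start had 1.16 in DN (0.97 to 1.38), 1.00 in DP (0.74 to 1.33), 2.51 in CD4 (2.11 to 2.96) and 0.93 in CD8 cells (0.68 to 1.24). In the CD4 sort, 57 of its 140 counts came from 1 cell whose total was 1009. The ratio of DN to the CD4 and CD8 sorts together was 0.66 (0.52 to 0.83) with that cell and 0.95 (0.74 to 1.22) without it, and that of DP was 0.57 (0.40 to 0.78) and 0.82 (0.57 to 1.15). At the Hmgb1 start DN cells had 1.72 times the CD4 and CD8 level (1.14 to 2.63), which was 1.30 (0.82 to 2.07) when a cell could give at most 1 count. In the lower of the separate series of cell label numbers, with 32 DN cells, it was 1.37. Within the higher, with 24 DN cells, it was 0.266, in the opposite direction. These series held every CD4 and CD8 cell, but only those 32 and 24 of 182 DN cells, and 64 and 29 of 125 DP cells. Sort and label number were thus mixed in the ratios over all cells and cannot be told apart there. For Hmgn1 the DN ratio was 1.65 (1.01 to 2.76), and 1.17 (0.67 to 2.04) with at most 1 count per cell. The Hmgb3 start had 2.34 times (1.11 to 4.95) the CD4 and CD8 level in DP cells, or 2.35 (1.09 to 5.10) with at most 1 count per cell. It was 1.76 and 15.3 in the lower and higher series of cell label numbers, the latter with 29 DP, 55 CD4 and 20 CD8 cells. Over all cells this ratio rests on 17 counts in DP and 16 in CD4 and CD8 cells, and the values by series on fewer. The intervals of the other ratios of DN or DP to the CD4 and CD8 sorts included 1. Over 8370 start-site peaks of the genome the DN ratio had a median of 1.03 and ran from 0.51 to 2.37 between the 5th and 95th percentiles, so that the Hmgb1 and Hmgn1 ratios lay within this range. The DP ratio ran from 0.39 to 2.32, and that of Hmgb3 lay just above the 95th percentile.

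The sorts carried the marks of their labels in part. In peaks within 5 kb of the Cd8a start the counts per 10000 were 4.16 in DP, 2.12 in CD8, 0.90 in CD4 and 0.74 in DN cells, and within 5 kb of the Cd4 start they were 1.65 in CD4, 1.48 in DP, 1.05 in CD8 and 0.72 in DN cells. In the single peak at the Cd8a start they were 0.565 in DP, 0.404 in CD8, 0.108 in DN and 0.0358 in CD4 cells. The peak at the Cd4 start held 9 counts in the DP sort, 2 in the CD8 sort and 1 each in the CD4 and DN sorts, so there the CD4 sort was not above the CD8 sort (ratio 0.44, 0.0075 to 8.51). At the Rag1 start DP cells had 0.84, CD8 0.38 and DN 0.20 per 10000 and CD4 cells 0 of 558091 counts, which allows up to 0.0538 per 10000 (3 counts). The signal at Cd4 thus set the CD4 sort above the CD8 sort only in the wider window, and the CD8 sort had Rag1 signal that mature cells are known to lack. The part of immature cells in that sort was not tested. The DP sort does not separate the blasts from the DPre and DPsel stages, so the differences between those stages in the transcripts could not be looked for at the start sites.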

How the data were processed

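Per the file headers and the study's methods, the authors aligned the droplet scRNA-seq reads with Cell Ranger 1.3.1 (submitters' processing notes), filtered cells and genes, quantile-normalised across cells and deposited log2 values with zeros kept at 0. The authors also deposited raw scATAC-seq counts per peak and cell, from reads aligned with Bowtie2, cleared of duplicates with Picard and given peaks by MACS2 on merged cells. The build of the peaks is not given in the sources used here, and 22.9% of the 138317 peak centres lay within 2000 bp of a GRCm38 protein-coding start, against 6.36% after a shift of 100000 bp. Of the scATAC-seq columns, 1446 hold unsorted cells or cells of no stated group and were not used. Peaks of 4000 bp overlap each other, so sums over 5 kb count some reads more than once.

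Values were ranked into steps within each cell and thinned to the lowest total of any cell (seed 1). The thinning and the interval code were tested on simulated data. Shares have exact binomial, sums exact Poisson and ratios conditional exact 95% intervals. Clusters came from Seurat 5.3.0 (R 4.3.3) with the settings of the study's methods (1306 variable genes, 20 principal components, resolution 2). Markers were scored as z values over clusters, and the class whose markers scored highest on average named the cluster. ISP and DPbla were given only, and always, where 50% or more of a cluster's cells had an Mki67 value. No doublet caller was run, and an alternative left out the 5% of cells with most genes in each cluster (107 cells). Intervals cover no variation between animals. Python 3.11.15 with numpy 2.4.6, pandas 2.3.3, scipy 1.17.1 and matplotlib 3.10.9 did the rest.

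The named genes are all 7 members, Mki67 and Top2a, the 3 genes most like each member and, of each list, the genes with the largest and smallest difference. Other genes named for a count, a cluster or a rank were chosen after their values were seen. The members, gene lists and markers were chosen with earlier results of these data known. Alternatives changed the unit, the depth, the definition of cycling, the cell filters, the clustering, the phase limit, the peak window and the label series. The ones within ISP-like or DPbla-like cycling cells and with at most 1 count per cell were added after seeing the data. Proteins were not analysed here. How reads that match more than 1 place were counted is not given in the sources used here. Some items of the lists are not reported here.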

Additional observations from a re-analysis of the deposited data

How the results depend on the processing

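The differences between cycling and noncycling cells kept their direction under every alternative for Hmgb1, Hmgb2, Hmgb3, Hmgn1, Hmgn2 and Hmga1, and of 63 values, that for Hmgn3 included, 47 stayed within 1.5 times (or 0.05) of the value reported, 15 moved further and 1 moved further with a changed sign. With log2(steps + 1) after thinning they were 0.89 for Hmgb1, 1.83 for Hmgb2, 0.26 for Hmgb3, 0.23 for Hmgn1, 1.25 for Hmgn2 and 0.063 for Hmga1. Within strata of detected genes they were 0.71, 1.41, 0.35, 0.075, 0.95 and 0.011 in the same order. Without thinning, log2(steps + 1) gave 1.10 for Hmgb3, 1.28 for Hmgn1, 0.63 for Hmga1 and, with a changed sign, 0.12 for Hmgn3. Hmgn3 (reported as -0.0019) also changed sign, within 0.05, after thinning (0.012), against cells with neither gene (0.00085), with either gene taken as cycling (0.0043) and without APC-like and NCL-like cells (0.0046). Other definitions of cycling and other cell filters moved no value this far.

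DPbla-like minus CD4sp-like and CD8sp-like cells, after thinning, came to 1.73 for Hmgb1, 2.36 for Hmgb2, 0.38 for Hmgb3, 0.17 for Hmgn1, 1.70 for Hmgn2 and 0.073 for Hmga1, and other clusterings moved none this far, although at resolution 1 no cluster was named CD8sp and 182 cells were named CD4sp by 0.92 against 0.89 for DPsel. Resolution 1 left 79.9% of cells, and clustering without the members 95.8%, in the same class. G2/M-like minus S-like, after thinning, was 0.41 for Hmgb2, 0.11 for Hmgb3, -0.18 for Hmgn1 and -0.086 for Hmga1. In ISP-like cycling cells alone it was -0.090 for Hmgb1 and 0.14 for Hmga1, both with a changed sign, 0.39 for Hmgb2, -0.16 for Hmgn1, 0.043 for Hmgn2 and -0.069 for Hmgn3, and in DPbla-like cells alone 0.21 for Hmgb1, 0.35 for Hmgb2, 0.15 for Hmgb3 and 0.33 for Hmgn2. The sign for Hmga1 in ISP-like cells differed from that of its thinned ratio. The cause of the changed signs was not tested.

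At the start sites, the cells whose label numbers start from the higher of the separate number series gave DN ratios of 0.266 for Hmgb1 (a changed direction), 0.259 for Hmgb2 and 3.72 for Hmgb3, and DP ratios of 0.291 for Hmgb2 and 15.3 for Hmgb3. The lower series gave 0.897 for Hmgb2 in DP and, in the opposite direction, 0.564 for Hmgb3 in DN, 0.473 for Hmga1 in DP, 0.651 for Hmgn2 in DN and 0.965 for Hmgn1 in DP, of which none had an interval in all cells that left out 1. At most 1 count per cell gave 0.904 and 0.891 for Hmgb2 in DN and DP. No value could be had for Hmgn2 in DP (higher series) and for Hmgn3 in DN (lower) and DP (higher), where a side had no count. The genes most like a member shared 0 to 2 of 3 names when correlated over single cells. Hmgn3 and Hmga1 were found in the fewest thinned cells of the members (4.82% and 10.0%). No paired analysis was possible because each group is 1 sample.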
